A study of Mus musculus with 4 samples.

Results

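CD4 T cells of the posterior eye at 1 month of age were chosen by measured UMI counts, as the cell barcodes that held RNA of the T cell receptor complex and of the coreceptor Cd4, with none of Cd8a, Cd8b1 or the B cell gene Cd79a. A barcode needed at least 300 genes, at most 30% mitochondrial UMIs (unique molecules), at least 1 UMI each of at least 2 of the 5 genes Cd3e, Cd3d, Cd3g, Trac and Trbc2, and at least 1 UMI of Cd4. The rule found 122 barcodes among the 6555 kept in the 4 libraries of the series, 50 in the Vldlr-/- library and 72 in the wild-type library at 1 month. Droplet single-cell RNA sequencing had been run on RPE-choroid, the pigment epithelium behind the photoreceptors with its vascular bed, of Vldlr-/- mice (lacking the very low density lipoprotein receptor) and WT mice at the ages of 1 and 2 months, 1 library per genotype and age. The neural retina had been lifted away and the tissue digested with enzymes before dead cells were removed. No source used here gives the strain, the sex or the number of mice behind a library, and the labels describe the knockout allele no further. The series title concerns RPE mitochondria and fibrosis, and the labels set the T cells no question of their own.

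CD4 T cells read peptides held by MHC class II molecules through the T cell receptor and its CD3 chains, with Cd4 as the coreceptor. Naive cells circulate between blood and lymphoid tissue by means of Ccr7 and S1pr1, and lose these on activation, when Cd44, Cd69, adhesion molecules and cytokines come up. A separate lineage, the regulatory T cell, restrains other T cells. It is set by the transcription factor Foxp3 and carries Ctla4, Il2ra and Izumo1r (folate receptor 4). In the eye, which keeps immune reactions low, regulatory T cells are known to limit inflammation. The cells were not separated from blood, so cells inside choroidal vessels and cells in the tissue cannot be told apart.

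The genes of the rule were read at similar levels in both libraries, which the rule itself favours and which carry no test. Trbc2, a constant region of the receptor beta chain, stood at 2200 CPM (counts scaled to a total of 1000000 UMIs) in Vldlr-/- cells and 2164 CPM in WT cells. Cd4 stood at 202 CPM in Vldlr-/- cells and 198 CPM in WT cells, with a median of 1 UMI a cell in both. All 5 T cell genes were detected in 48 of 50 Vldlr-/- and 62 of 72 WT barcodes. At the edge of the rule, 29 Vldlr-/- and 38 WT barcodes were in on a single Cd4 UMI, while 32 Vldlr-/- and 45 WT T cell barcodes with no UMI of Cd4, Cd8a or Cd8b1 stayed out. A further 11 Vldlr-/- and 6 WT barcodes held UMIs of Cd4 together with Cd8a or Cd8b1 and stayed out too. Genes of the lineage that the rule did not use were read as well. Cd247, the zeta chain of the receptor, had 192 CPM in Vldlr-/- cells and 218 CPM in WT cells, and Cd40lg had 86.0 CPM in Vldlr-/- cells and 108 CPM in WT cells. The thymocyte genes Rag1, Rag2 and Dntt were at 0 in both libraries.

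CD4 T cells were 2.75% of 1819 kept barcodes in the Vldlr-/- library (exact binomial 95% interval 2.05 to 3.61) and 4.65% of 1549 in the WT library (3.65 to 5.82). Rod photoreceptor barcodes numbered 465 in the Vldlr-/- library and 157 in the WT library, and their part in this difference was not tested. The members were also counted without barcodes carrying B cell or macrophage markers or the highest UMI totals. That left 39 members of the 1819 kept barcodes in the Vldlr-/- library and 42 of the 1549 in the WT library. Of all lymphocyte barcodes, CD4 T cells were 11.2% of 448 in the Vldlr-/- library and 13.3% of 540 in the WT library. At 2 months the same rule found 1 barcode in each genotype, with 5697 UMIs in the Vldlr-/- and 7209 UMIs in the WT library, so that age gave no comparison. No member barcode was shared between libraries.

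The CD4 T sums held 500055 UMIs in the Vldlr-/- library and 695835 UMIs in the WT library. The median cell held 9575 UMIs in the Vldlr-/- and 8997.5 UMIs in the WT library. With 1 library per genotype, differences between genotypes have no replicate check and no test, and the intervals printed cover counting error only. Vldlr itself could not be checked in these cells, with 1 UMI in each 1-month sum. In all kept barcodes without the rods Vldlr had 3.60 CPM in the Vldlr-/- and 11.1 CPM in the WT library at 1 month, and 19.0 CPM in the Vldlr-/- and 136 CPM in the WT library at 2 months. Rods carried 208 CPM in the Vldlr-/- library and 312 CPM in the WT library at 1 month, and 249 CPM in the Vldlr-/- and 309 CPM in the WT library at 2 months. The labels do not say which exons were removed, so remaining tags of Vldlr check the knockout in part at most. Xist, transcribed in female cells, was detected in 25 of 50 Vldlr-/- and 19 of 72 WT cells, and the Y-linked Ddx3y in 6 Vldlr-/- and 14 WT cells, so both libraries held RNA of both sexes.

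A few barcodes held many UMIs of genes of another cell type. Lists of 5 types were screened: fibroblast, rod, RPE, red blood cell and B cell. In the Vldlr-/- library 5 members held at least 30 UMIs of one of these lists, and they are called mixed barcodes here: 423 UMIs of rod genes in 1 barcode, 344 of RPE genes in another, 55 of B cell genes in 1 more, and 83 and 40 of fibroblast genes in the last 2. In the WT library 3 did so, with 1860 UMIs of red blood cell genes in 1 and 295 and 275 of fibroblast genes in the others. Among the remaining members none of the 5 lists passed 14 UMIs in a Vldlr-/- cell or 20 in a WT cell. The list of NK and cytotoxic genes, which some CD4 T cells also use, was not screened, and 368 and 34 UMIs of it in 2 Vldlr-/- members and 218, 51 and 38 UMIs in 3 WT members stayed in. These barcodes were picked after the data were seen, and results are given with and without them. No doublet caller was run.

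**Figure D1:**
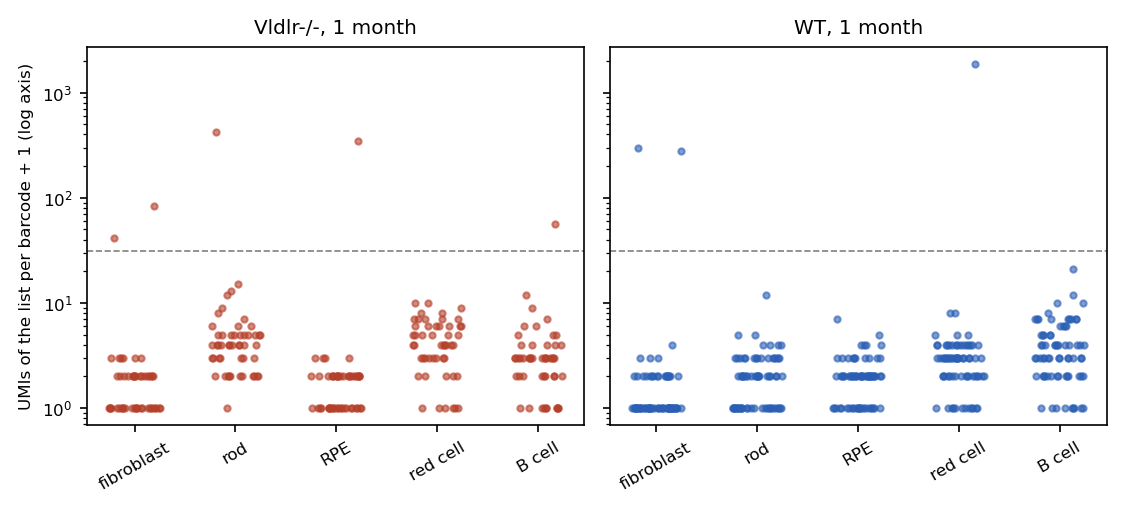
UMIs of genes of other cell types in each CD4 T barcode at 1 month (y axis, UMIs plus 1 on a log scale; each point is 1 barcode; x axis, gene lists; Vldlr-/- panel left of the WT panel). The 5 Vldlr-/- and 3 WT barcodes above the dashed line at 30 UMIs are those left out in the comparisons without mixed barcodes.

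Most cells of both genotypes held the RNA of naive, recirculating T cells. Klf2, which drives S1pr1, was detected in 100% of the cells in both libraries. It was not particular to CD4 T cells, with 93.2% of Vldlr-/- and 95.7% of WT CD8 T cells. In B cells it was found in 97.0% of Vldlr-/- and 95.6% of WT cells. Lef1 and Tcf7, transcription factors of naive T cells, were detected in 94% and 92% of Vldlr-/- cells, against 90.3% and 90.3% of WT cells. Ccr7 was detected in 84% of Vldlr-/- and 84.7% of WT cells, beside 70% of Vldlr-/- and 68.4% of WT B cells.

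Genes that mark polarised helper cells were detected in few members. Il4, Il5, Il13, Il17a and Cxcr5 had no UMI in any member, which allows a share of cells with a UMI of up to 6% of the Vldlr-/- and 4.17% of the WT cells for each, taken as 3 counts of the cells. This limits cells with a UMI, not cells of a helper subset. Tbx21, the Th1 factor, was detected in 4% of Vldlr-/- and 8.33% of WT cells. Ifng was detected in 0% of Vldlr-/- and 6.94% of WT cells, and Bcl6, the factor of follicular helpers, in 6% of Vldlr-/- and 8.33% of WT cells. Gata3, which all CD4 T cells use beside its Th2 role, was found in 30% of Vldlr-/- and 36.1% of WT cells. Mki67, a gene of dividing cells, was found in 4% of Vldlr-/- and 1.39% of WT cells.

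The T cell receptor V segments, which differ between clones, were spread over many genes. Trav segments were read in 12 of 50 Vldlr-/- cells over 12 segments and in 25 of 72 WT cells over 24 segments. Trbv segments were read in 23 Vldlr-/- cells over 14 segments and in 26 WT cells over 15 segments. The most widely shared, Trbv3, was read in 5 Vldlr-/- and 4 WT cells. These counts give no clonotype, and near-identical Trav copies may share reads.

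Regulatory T cell genes were higher in Vldlr-/- cells. All 9 of the 12 listed genes with at least 30 UMIs over both sums were higher, 6 of them at least 2-fold, with a median log2 ratio of 1.16, beside 0.05 over all 4590 genes with that many UMIs. Over those 4590 genes, 2.24% passed 2-fold upward and 2.55% downward. Without the mixed barcodes 7 of 7 measured genes were higher, 4 of them at least 2-fold, with a median of 1.15, where 2.34% of 3975 genes passed 2-fold upward and 1.31% downward. In CD8 T cells of the same libraries the list's median was 0.49, with 4 of 6 measured genes higher. The median was 0.65 without barcodes carrying B cell or macrophage markers or the highest UMI totals, and 0.58 when T cells with neither coreceptor were added.

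Promoters were at hand for 9 of the 12 listed genes. Those of 4 are printed because they hold the NFAT letters: Foxp3, which sets the lineage, and the surface molecules Ctla4, Izumo1r and Tnfrsf4. The windows run from 250 bases before to 50 after a RefSeq gene start on GRCm38.p6: Foxp3 at chrX:7580233-7580532 on the plus strand, Ctla4 at chr1:60908775-60909074 on the plus strand, Izumo1r at chr9:14903718-14904017 on the minus strand and Tnfrsf4 at chr4:156013445-156013744 on the plus strand. Capitals mark matches to the NFAT letters TGGAAA, on either strand, or to the STAT letters TTCNNNGAA.
Foxp3: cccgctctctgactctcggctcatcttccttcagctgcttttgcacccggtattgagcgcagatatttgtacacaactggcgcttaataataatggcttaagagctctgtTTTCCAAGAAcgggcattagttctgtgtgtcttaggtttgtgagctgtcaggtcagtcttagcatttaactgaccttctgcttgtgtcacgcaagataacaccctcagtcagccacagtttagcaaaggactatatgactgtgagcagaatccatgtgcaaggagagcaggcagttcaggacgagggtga
Ctla4: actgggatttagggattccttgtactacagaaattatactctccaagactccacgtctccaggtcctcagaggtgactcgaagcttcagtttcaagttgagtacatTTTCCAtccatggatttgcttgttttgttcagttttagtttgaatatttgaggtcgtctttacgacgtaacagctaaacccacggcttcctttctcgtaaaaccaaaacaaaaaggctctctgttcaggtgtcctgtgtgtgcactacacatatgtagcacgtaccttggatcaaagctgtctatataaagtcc
Izumo1r: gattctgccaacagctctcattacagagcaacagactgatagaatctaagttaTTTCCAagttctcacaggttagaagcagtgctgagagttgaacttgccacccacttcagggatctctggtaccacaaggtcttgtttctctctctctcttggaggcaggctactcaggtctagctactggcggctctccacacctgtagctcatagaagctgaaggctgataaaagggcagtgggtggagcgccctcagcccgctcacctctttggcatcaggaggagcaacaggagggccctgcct
Tnfrsf4: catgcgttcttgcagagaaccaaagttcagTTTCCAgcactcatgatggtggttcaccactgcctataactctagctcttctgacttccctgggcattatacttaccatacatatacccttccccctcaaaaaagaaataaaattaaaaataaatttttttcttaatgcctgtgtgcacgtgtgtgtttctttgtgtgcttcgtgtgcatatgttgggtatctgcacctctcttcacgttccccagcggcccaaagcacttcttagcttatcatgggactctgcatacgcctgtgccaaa

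The NFAT letters, known from the factor that links the T cell receptor to gene activation, lay 140 bases before the start of Foxp3, 144 before Ctla4, 197 before Izumo1r and 220 before Tnfrsf4. They were in none of the windows of Capg, Gpr83, Il2ra, Nrp1 and Tnfrsf18, nor in a further Foxp3 window at chrX:7579426-7579725, which held no match to any motif searched. Of all 32851 promoter windows, 21.4% hold them, so the letters are common. The STAT letters in the Foxp3 window, found in 8.30% of windows, overlap the NFAT match, and the Tnfrsf18 window held them 99 bases before the start. No window of the 9 genes held the letters TGTTTAC of forkhead factors, TGTGGTT of Runx or TGANTCA of AP-1, found in 3.65%, 5.27% and 7.81% of all windows. A match is a description of letters, not of a bound site.

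Foxp3 had 8, 5, 4, 2, 2, 1 and 1 UMIs in 7 Vldlr-/- cells, against 4, 3, 1 and 1 UMIs in 4 WT cells. The sums were 23 UMIs (46.0 CPM) in Vldlr-/- and 9 UMIs (12.9 CPM) in WT cells, a log2 ratio of 1.78 (0.66 to 3.13) and 1.29 without mixed barcodes, over 15 and 9 UMIs. Foxp3-detected cells were 14% of Vldlr-/- (5.82 to 26.7) and 5.56% of WT cells (1.53 to 13.6), and these intervals overlap. With each cell thinned to 1500 UMIs the shares were 8% in the Vldlr-/- and 2.78% in the WT library. Thinned to 1000 UMIs they were 4% in the Vldlr-/- (2 of 50 cells) and 4.17% in the WT library (3 of 72 cells). The higher Vldlr-/- share was thus not seen at that depth. No B cell or rod barcode held a Foxp3 UMI, with median depths of 6182 UMIs in 270 Vldlr-/- and 6245.5 UMIs in 250 WT B cells, and of 3068 UMIs in Vldlr-/- and 2317 UMIs in WT rods.

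Ctla4, the inhibitory receptor that competes with Cd28, had 99 UMIs in 18 Vldlr-/- cells (198 CPM), against 51 UMIs in 16 WT cells (73.3 CPM), a log2 ratio of 1.43 (0.93 to 1.95). Ikzf2, the factor Helios, had 84 UMIs in 11 Vldlr-/- cells and 50 UMIs in 13 WT cells, a log2 ratio of 1.22 (0.70 to 1.76). Rod barcodes held Ikzf2 as well, in 28.4% of them in the Vldlr-/- and 17.2% in the WT library. The part of rod RNA in this ratio was not tested. Gpr83, a receptor enriched in regulatory T cells, had 27 UMIs in 9 Vldlr-/- cells and 8 UMIs in 4 WT cells, a log2 ratio of 2.17 (1.05 to 3.58). In all 3 genes the number of cells with a UMI differed less between the genotypes than the UMIs did. Izumo1r was detected in 29 of 50 Vldlr-/- cells (198 CPM) and 24 of 72 WT cells (105 CPM), a log2 ratio of 0.91 (0.47 to 1.37). Capg, an actin-capping protein, had 94.0 CPM in Vldlr-/- and 41.7 CPM in WT cells, and was also detected in 66.7% of Vldlr-/- and 66% of WT B cells. The costimulatory receptors Tnfrsf4 (OX40) and Tnfrsf18 (GITR) had 30 and 48 UMIs in Vldlr-/- cells, against 20 and 35 UMIs in WT cells, and 14 of the 30 and 13 of the 20 Tnfrsf4 UMIs lay in 1 cell. Nrp1 had 17 UMIs in Vldlr-/- and 13 in WT cells, a log2 ratio of 0.85 whose interval, -0.26 to 2.03, held 0. Il2ra, the alpha chain of the interleukin 2 receptor, had 10 UMIs in Vldlr-/- cells (20.0 CPM) and 14 UMIs in WT cells (20.1 CPM), too few for the count.

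**Figure D2:**
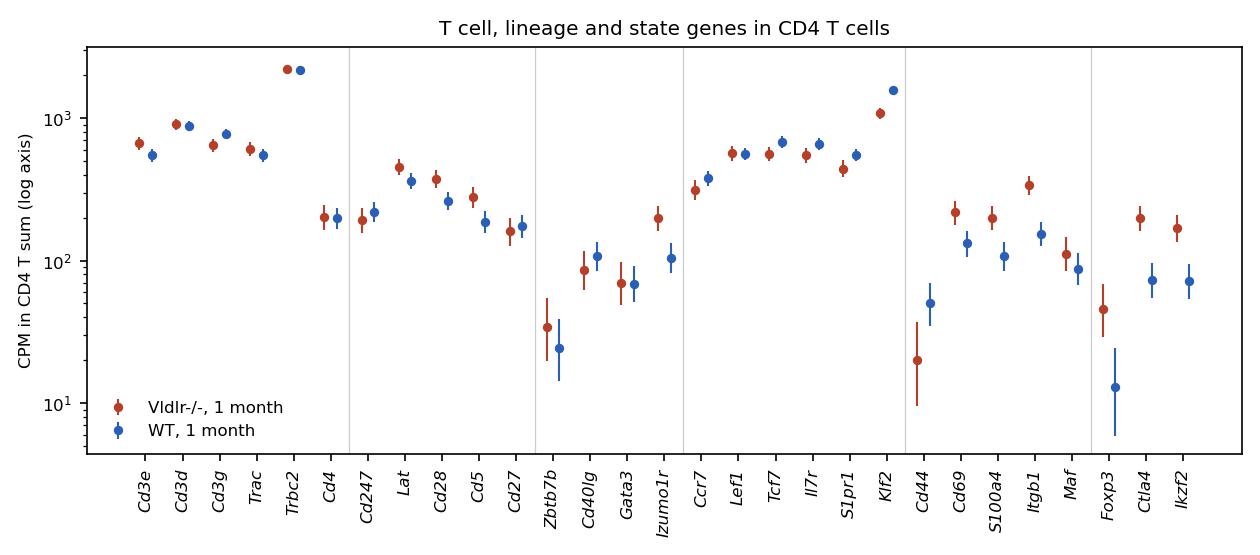
Levels of T cell genes in the CD4 T sums at 1 month (x axis, genes; y axis, CPM on a log scale with 95% counting intervals; the Vldlr-/- point left of the WT point for each gene, with no replicates). Ctla4 stood at 198 CPM in Vldlr-/- cells and 73.3 CPM in WT cells, while Lef1 stood at 564 CPM in Vldlr-/- cells and 562 CPM in WT cells.

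The rest of the regulatory list was denser in Foxp3-detected cells, though many of its UMIs lay elsewhere. The other 11 listed genes summed to 3552 CPM in the Foxp3-detected and 532 CPM in the remaining Vldlr-/- cells, and to 3138 CPM in the Foxp3-detected and 352 CPM in the remaining WT cells. In UMIs this was 246 in the Foxp3-detected and 229 in the remaining Vldlr-/- cells, and 73 in the Foxp3-detected and 237 in the remaining WT cells. A Foxp3-detected cell held a median of 8 of the 11 genes in the Vldlr-/- library, where the remaining cells held 1, and of 7 in the WT library, where the remaining cells held 1. Lef1 went the other way, with 188 CPM in Foxp3-detected and 624 CPM in the remaining Vldlr-/- cells, and 86.0 CPM in Foxp3-detected and 578 CPM in the remaining WT cells. One of the 7 Vldlr-/- cells was the mixed barcode with 55 UMIs of B cell genes. With Foxp3-detected cells left out, the list's median was 0.60. Among the remaining cells 9 of 43 in the Vldlr-/- and 10 of 68 in the WT library held 4 or more of the 11 genes. The remaining cells included 4 mixed barcodes in the Vldlr-/- and 3 in the WT library. Some of the 11 genes are also activation genes, and whether these cells were regulatory T cells was not tested.

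**Figure D3:**
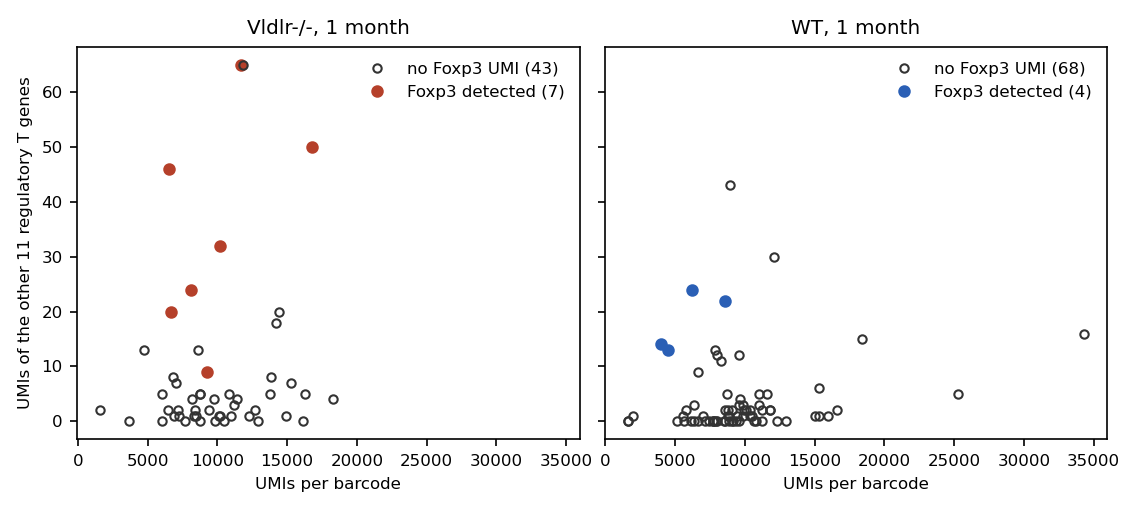
Each CD4 T barcode at 1 month by its total UMIs (x axis) and by its UMIs of the 11 regulatory T cell genes other than Foxp3 (y axis), Vldlr-/- left of WT, with Foxp3-detected cells marked. The 7 Vldlr-/- Foxp3-detected cells hold 9 to 65 UMIs of these genes and the 4 WT ones 13 to 24, while the highest cell with no Foxp3 UMI holds 65 in the Vldlr-/- and 43 in the WT library.

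Activation and memory genes were higher in Vldlr-/- cells as a list, though less so without the mixed barcodes. Of 19 measured genes 14 were higher and 5 lower, of which 3 passed 2-fold upward and 1 downward, with a median log2 ratio of 0.50. Without mixed barcodes the counts were 16 and 3 and the median 0.25, and without Foxp3-detected cells the median was 0.20. It was 0.12 without barcodes carrying B cell or macrophage markers or the highest UMI totals, and 0.08 with the T cells of neither coreceptor added. Il2ra, Ctla4, Tnfrsf18 and Tnfrsf4 belong to both this and the regulatory list, so the lists are not independent.

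Cd69, which holds T cells in tissue and appears early on activation, had 109 UMIs in 34 of 50 Vldlr-/- cells and 92 UMIs in 34 of 72 WT cells, a log2 ratio of 0.72 (0.31 to 1.14). Itgb1, the integrin beta 1 chain, had 169 UMIs in 23 Vldlr-/- cells and 107 UMIs in 23 WT cells, a log2 ratio of 1.13 (0.78 to 1.50) and 1.49 without mixed barcodes. In the Vldlr-/- library 1 cell held 49 and another 44 of the 169 Itgb1 UMIs. Foxp3-detected cells held 77 of the 169 in the Vldlr-/- library, but 1 of the 107 in the WT library. S100a10, a partner of annexin A2, had 920 CPM in Vldlr-/- cells and 520 CPM in WT cells, a log2 ratio of 0.82 that was 0.42 without mixed barcodes. Cd44, the hyaluronan receptor of memory cells, ran the other way, with 10 UMIs in 5 Vldlr-/- cells and 35 UMIs in 13 WT cells, a log2 ratio of -1.28 (-2.51 to -0.29) and -0.45 without mixed barcodes. Cd40lg, the helper signal to B cells, had 86.0 CPM in Vldlr-/- and 108 CPM in WT cells, with an interval of the log2 ratio that held 0 (-0.90 to 0.23).

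Naive and recirculation genes were a little lower in Vldlr-/- cells. Of 14 measured genes 10 were lower and 4 higher, with a median log2 ratio of -0.26 and no gene 2-fold apart. The median was -0.17 without mixed barcodes, -0.14 without Foxp3-detected cells and -0.23 in CD8 T cells. Klf2 had 1076 CPM in Vldlr-/- cells and 1565 CPM in WT cells, a log2 ratio of -0.54 (-0.69 to -0.39). S1pr1, the receptor for exit from lymphoid tissue, had 442 CPM in Vldlr-/- and 552 CPM in WT cells, and Il7r, the receptor for the survival factor interleukin 7, had 550 CPM in Vldlr-/- and 657 CPM in WT cells.

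T cell receptor signalling genes differed little. Of 23 measured genes 16 were higher and 7 lower in Vldlr-/- cells, none 2-fold, with a median of 0.23 that was 0.18 without mixed barcodes and -0.01 with the T cells of neither coreceptor added. Cd5, which tracks the strength of receptor signals, had 280 CPM in Vldlr-/- cells and 187 CPM in WT cells, a log2 ratio of 0.58 (0.23 to 0.94). Cd28, the main costimulator, had 376 CPM in Vldlr-/- and 262 CPM in WT cells, a log2 ratio of 0.52 (0.22 to 0.83). Lck, the kinase bound to Cd4, had 326 CPM in Vldlr-/- and 290 CPM in WT cells, and Zap70 54.0 CPM in Vldlr-/- and 69.0 CPM in WT cells, both with intervals that held 0.

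MHC class I and interferon genes leaned lower in Vldlr-/- cells. Of 15 class I genes 13 were lower, with a median log2 ratio of -0.28, and -0.22 without mixed barcodes, none 2-fold. Psmb9, a subunit of the immunoproteasome, had 110 CPM in Vldlr-/- and 180 CPM in WT cells, a log2 ratio of -0.70 (-1.19 to -0.24). H2-K1 had 1754 CPM in Vldlr-/- and 1828 CPM in WT cells, with an interval that held 0 (-0.19 to 0.07), and reads of H2 genes may be split among near-identical copies. In B cells 14 of the same 15 genes were lower, with a median of -0.34. Of 26 interferon response genes 15 were lower and 11 higher, with a median of -0.19 and of -0.05 without mixed barcodes. Ifit3, an interferon-induced gene, had 5 UMIs in 5 Vldlr-/- cells and 48 UMIs in 10 WT cells, 19 of them in 1 cell. Without mixed barcodes 4 UMIs were left in Vldlr-/- and 28 in WT cells. Its log2 ratio was -2.66 in CD4 T cells, beside -0.65 (-1.42 to 0.03) in CD8 T cells. In B cells it ran the other way, at 1.28 (0.28 to 2.46). Ly6a (Sca-1), which interferon raises in T cells, had 55 UMIs in 19 Vldlr-/- cells and 176 UMIs in 46 WT cells, a log2 ratio of -1.19 (-1.67 to -0.76), beside -0.78 in CD8 T cells and -1.36 in B cells.

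Immediate early genes, which tissue digestion is known to induce, had a lower median in Vldlr-/- cells, close to 0 without mixed barcodes. Of 21 measured genes 15 were lower, 3 of them at least 2-fold, none was 2-fold higher, and the median was -0.30. Without mixed barcodes 10 of 18 were lower, 2 passed 2-fold upward and 1 downward, and the median was -0.07. Jun had 46 UMIs in 18 Vldlr-/- cells and 182 UMIs in 31 WT cells, a log2 ratio of -1.50 (-2.01 to -1.03) and -1.25 without mixed barcodes. Fosb had 6 UMIs in Vldlr-/- and 74 in WT cells, 33 of those in 1 barcode. Dusp2, a phosphatase of activated T cells, ran the other way, with 142 CPM in Vldlr-/- and 73.3 CPM in WT cells, a log2 ratio of 0.95 (0.41 to 1.50).

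The lists that follow had medians between -0.06 and 0.30, beside 0.05 over all genes, of which 2559 of 4590 were higher, and 2214 of 3975 without mixed barcodes. Cytokine receptor and JAK-STAT genes had 13 of 20 higher and a median of 0.04. Il2rb, the beta chain of the interleukin 2 receptor, had 39 UMIs in Vldlr-/- and 29 in WT cells, a log2 ratio of 0.90 (0.17 to 1.65), and Il2rg, the shared gamma chain, had 97 UMIs in Vldlr-/- and 199 in WT cells, a log2 ratio of -0.56 (-0.93 to -0.20). Homing and adhesion genes had 10 of 14 higher and a median of 0.18. Survival genes had a median of 0.30 and 0.18 without mixed barcodes. Nuclear genes of oxidative phosphorylation had 47 of 72 higher and a median of 0.14, and 39 of 72 and 0.05 without mixed barcodes, while the 13 mitochondrially encoded genes had a median of 0.01. Ribosomal protein genes had 64 of 81 lower with a median of -0.06. Cell cycle genes had 4 of 7 higher with a median of 0.28. Among them Stmn1, a tubulin-binding protein, had 77 UMIs in 27 Vldlr-/- cells and 40 UMIs in 16 WT cells. Of these, 1 cell of each library held 31 and 15. Its log2 ratio was 1.41 in CD4 T cells, beside -0.61 in CD8 T cells and 0.83 in B cells.

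**Figure D4:**
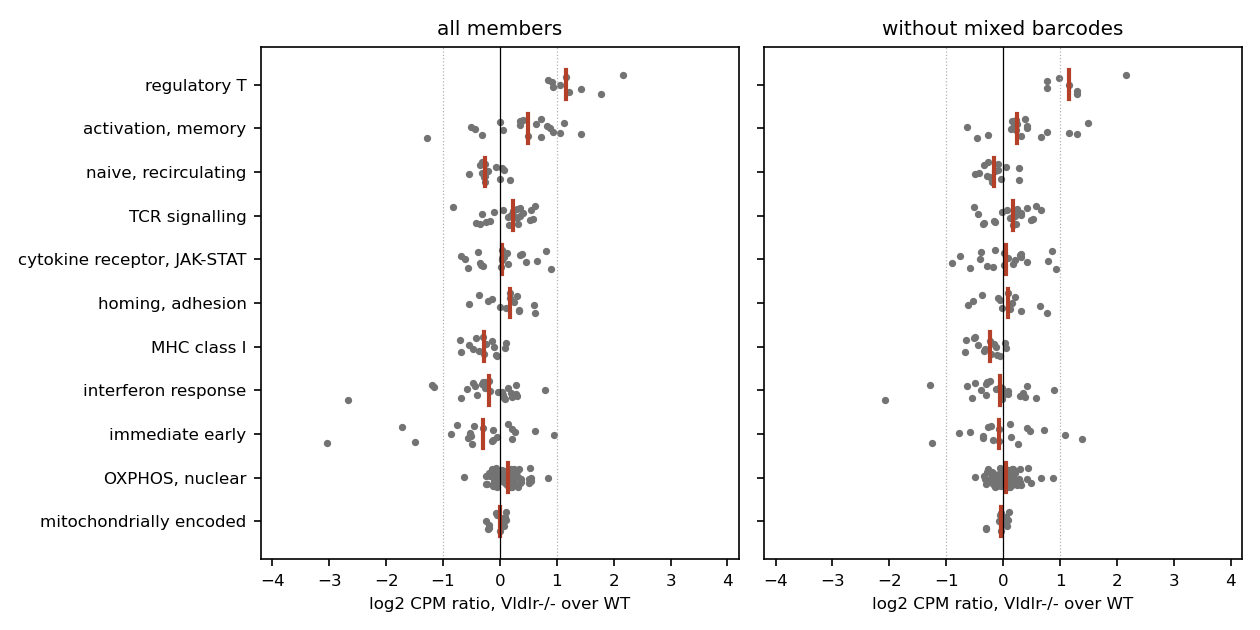
Log2 ratio of CPM, Vldlr-/- over WT, for genes of each list in the CD4 T sums at 1 month (x axis; each point is 1 gene with at least 30 UMIs over both sums, red bars are medians), with all members on the left and without mixed barcodes on the right. The regulatory T cell list has its median at 1.16 on the left and 1.15 on the right, while the immediate early list has -0.30 on the left and -0.07 on the right.

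Some genes that differed most between the genotypes did so in the other lymphocytes too. Gdpd3 (chromosome 7), a lysophospholipase D family gene, had 107 UMIs in 21 Vldlr-/- cells and 0 in WT cells, at least 49.6-fold higher against a floor of 3 counts over the WT sum. Trim12a (chromosome 7), a gene of the tripartite motif family, had 0 UMIs in Vldlr-/- cells and 89 UMIs in 47 WT cells, at least 21.3-fold lower against a floor of 3 counts over the Vldlr-/- sum. The predicted genes Gm35082 (chromosome 7) and Gm8797 (chromosome 3) had 43 and 93 UMIs in Vldlr-/- cells, against 1 and 6 UMIs in WT cells. All 4 went the same way in CD8 T and B cells, with log2 ratios in CD8 T cells of 6.88 for Gdpd3, 7.43 for Gm35082, 3.92 for Gm8797 and -5.21 for Trim12a. Reads of Gm8797 and Trim12a may be shared with near-identical copies elsewhere in the genome. Pttg1 (securin) had 1 UMI in Vldlr-/- cells and 33 UMIs in 24 WT cells, a log2 ratio of -4.00 (-9.91 to -1.99), beside -0.68 in CD8 T cells and -1.26 in B cells.

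Several others rested on single barcodes. Of the 10 genes named as lower among all members, Fmo1, Serping1, Ndnf, Col11a1 and Gpc3 were each detected in at most 3 WT cells, and without mixed barcodes all 5 were left with too few UMIs. Hba-a1, an alpha globin whose near-identical copy Hba-a2 was also named, had 26 UMIs in Vldlr-/- and 693 in WT cells, 673 of these in 1 barcode, and Gpc3 had 11 UMIs in Vldlr-/- and 137 in WT cells. Id1 had 0 UMIs in Vldlr-/- cells and 34 UMIs in 6 WT cells, 28 of them in 1 cell, at least 8.14-fold lower by the same floor. Among genes named as higher, Rgr, an opsin of the RPE, had 85 UMIs in Vldlr-/- and 5 in WT cells, with 83 of the 85 in 1 cell. Trf (transferrin) had 113 UMIs in Vldlr-/- and 10 in WT cells, with 108 of the 113 in 1 cell. Phlda1 had 33 UMIs in Vldlr-/- and 10 in WT cells, with 30 of the 33 in 1 cell. Tbc1d14 and Tsix, also named as higher, did not rest on 1 barcode. Tbc1d14 had 25 UMIs in 16 Vldlr-/- cells, at most 3 in a cell, and 8 in WT cells, a log2 ratio of 2.06. Tsix had 28 UMIs in 13 Vldlr-/- cells, at most 5 in a cell, and 10 in WT cells, a log2 ratio of 1.92. Tsix lies opposite Xist, whose reads cannot be told from its own where strand is not stated to be used.

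Without mixed barcodes, Slamf6, a receptor of naive and follicular T cells, and Itgb1, Stmn1, Ccl5 and Gzma joined the genes named as higher. Slamf6 had 165 UMIs in 40 Vldlr-/- cells and 99 UMIs in 42 WT cells, a log2 ratio of 1.21 (0.85 to 1.59). Gzma (granzyme A) had 173 UMIs in 2 Vldlr-/- cells and 114 UMIs in 12 WT cells, but 1 cell of each library held 172 and 99 of these. Ccl5 had 491 UMIs in 14 Vldlr-/- cells (28%) and 362 UMIs in 25 WT cells (34.7%), of which 1 cell of each library held 242 and 195. Its log2 ratio was 0.92 in CD4 T cells, beside -0.34 in CD8 T cells and -0.89 in B cells. On the lower side Tubb2a, a beta tubulin, had 23 UMIs in 11 Vldlr-/- cells and 105 UMIs in 35 WT cells, a log2 ratio of -1.69 (-2.43 to -1.05). Nisch, which encodes the integrin-binding protein nischarin, had 18 UMIs in 12 Vldlr-/- cells and 66 UMIs in 44 WT cells, a log2 ratio of -1.37 (-2.24 to -0.63). The others on that side were Gfod2, Cdpf1, Prkag1, Washc3 and Shld1, with log2 ratios between -3.08 and -0.95 over all members. Gfod2 had 22 of its 29 WT UMIs in 1 cell. Of the 103 genes at least 2-fold higher, 55 stayed so without mixed barcodes and had at least 30 UMIs there, and of the 117 at least 2-fold lower, 28 did.

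RNA of other cell types was present in both libraries. Rod genes summed to 1188 CPM in Vldlr-/- cells and 118 CPM in WT cells, and without mixed barcodes to 377 CPM in Vldlr-/- and 112 CPM in WT cells, with all 7 rod genes detected in both. RPE genes summed to 62.0 CPM in Vldlr-/- and 118 CPM in WT cells without mixed barcodes, and fibroblast genes to 62.0 CPM in Vldlr-/- and 41.5 CPM in WT cells. The macrophage list had 6 of 10 genes detected in Vldlr-/- cells and 5 of 10 in WT cells, with Csf1r and Adgre1 at 0 in both, and summed to 388 CPM in Vldlr-/- and 325 CPM in WT cells without mixed barcodes. Their part in the differences between genotypes was not tested. The B cell list had 9 of 12 genes detected in each library, with Pax5 and Bank1 at 0 in both, and summed to 198 CPM in Vldlr-/- and 346 CPM in WT cells without mixed barcodes. Red blood cell genes summed to 372 CPM in Vldlr-/- and 196 CPM in WT cells without mixed barcodes. NK and cytotoxic genes, all 12 detected in both, summed to 852 CPM in Vldlr-/- and 601 CPM in WT cells, and to 1010 CPM in Vldlr-/- and 657 CPM in WT cells without mixed barcodes, with 368 of 426 Vldlr-/- and 218 of 418 WT UMIs in 1 cell each. The part of these lists was not tested either.

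Against CD8 T cells of the same libraries, CD4 T cells stood apart in the genes of their lineage. With edgeR's quasi-likelihood test on sums of 4 lymphocyte classes in 2 libraries, library as a block and genes of the gates left out, 183 of 8076 genes were higher in CD4 T cells (2.27%) and 229 lower (2.84%) at an adjusted p under 0.05. Without mixed barcodes 170 of 7698 were higher (2.21%) and 254 lower (3.3%). Of the 8 CD4 lineage genes 6 were higher and none lower, with a median log2 fold change of 1.96, beside 0.00 over all genes, and 7 of 8 without mixed barcodes. The classes had been cut by Cd4, Cd8a and Cd8b1, so these genes are no result. With library as a block, the p-values rest on how differences among the 4 classes varied between 2 libraries of different genotype.

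Cd40lg had 86.0 CPM (Vldlr-/-) and 108 CPM (WT) in CD4 T cells, against 1.25 CPM (Vldlr-/-) and 3.05 CPM (WT) in CD8 T cells, a log2 fold change of 5.32 (adjusted p = 1.39e-05). Both CD4 sums lay above both CD8 sums. St8sia6, a sialyltransferase, had 76.0 CPM (Vldlr-/-) and 61.8 CPM (WT) in CD4 T cells, against 1.25 CPM (Vldlr-/-) and 0.762 CPM (WT) in CD8 T cells, a log2 fold change of 5.94 (adjusted p = 1.83e-05). Ly6c1 had 80.0 CPM (Vldlr-/-) and 165 CPM (WT) in CD4 T cells, against 2.51 CPM (Vldlr-/-) and 6.09 CPM (WT) in CD8 T cells, while its neighbour Ly6c2 ran the other way, with 54.0 CPM (Vldlr-/-) and 34.5 CPM (WT) in CD4 T cells, against 619 CPM (Vldlr-/-) and 782 CPM (WT) in CD8 T cells. The pair is nearly identical in sequence and may share reads. Pdlim4, a cytoskeletal adaptor, had 92.0 CPM (Vldlr-/-) and 70.4 CPM (WT) in CD4 T cells, against 6.27 CPM (Vldlr-/-) and 1.52 CPM (WT) in CD8 T cells. Zbtb7b, the factor ThPOK that sets the CD4 fate, had 34.0 CPM (Vldlr-/-) and 24.4 CPM (WT) in CD4 T cells, against 2.51 CPM (Vldlr-/-) and 7.62 CPM (WT) in CD8 T cells (log2 fold change 2.32, adjusted p = 0.0132). The receptor Klra4 was at least 17.1-fold higher, against a floor of 3 counts over both CD8 sums, but its 29 UMIs lay in 1 Vldlr-/- and 2 WT cells. Cd200r1 and Itih5 passed only without mixed barcodes, with log2 fold changes of 4.42 and 4.33.

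Regulatory genes were higher in CD4 than in CD8 T cells in 5 of 9 tested, with none lower and a median of 2.22: Ctla4 (log2 fold change 2.77, adjusted p = 4.57e-05), Izumo1r (2.74), Ikzf2 (1.62), Tnfrsf4 (4.01) and Il2ra (4.31). Of 15 naive genes 5 were higher and 1 lower, and 9 higher and 1 lower without mixed barcodes. Igfbp4 had 514 CPM (Vldlr-/-) and 487 CPM (WT) in CD4 T cells, against 102 CPM (Vldlr-/-) and 120 CPM (WT) in CD8 T cells (log2 fold change 2.13, adjusted p = 3.30e-06), and Tcf7 had 560 CPM (Vldlr-/-) and 678 CPM (WT) in CD4 T cells, against 256 CPM (Vldlr-/-) and 314 CPM (WT) in CD8 T cells. The lower gene was Ccr9, a homing receptor for the gut, with 2 UMIs (Vldlr-/-) and 3 UMIs (WT) in CD4 T cells, against 31 UMIs (Vldlr-/-) and 62 UMIs (WT) in CD8 T cells. Of 22 activation genes 6 were higher and 7 lower, the higher ones Cd40lg, Ctla4, Maf, Tnfrsf4, Il2ra and Icos, the lower ones Lgals1, Ahnak, S100a10, Crip1, S100a11, S100a6 and Vim. Col11a1, Crispld2, Ndnf, Kitl and Lynx1, also named as higher, did not pass or had too few UMIs to be tested without mixed barcodes.

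Genes of cytotoxic cells were lower in CD4 T cells. Of 13 CD8 lineage genes outside the gates 11 were lower and none higher, with a median log2 fold change of -3.03. Ccl5 had 982 CPM (Vldlr-/-) and 520 CPM (WT) in CD4 T cells, against 11587 CPM (Vldlr-/-) and 14633 CPM (WT) in CD8 T cells, a log2 fold change of -4.18 (adjusted p = 5.77e-08). Nkg7, a granule membrane protein, had 158 CPM (Vldlr-/-) and 145 CPM (WT) in CD4 T cells, against 1491 CPM (Vldlr-/-) and 1872 CPM (WT) in CD8 T cells. Runx3, the factor of the CD8 fate, had 48.0 CPM (Vldlr-/-) and 48.9 CPM (WT) in CD4 T cells, against 163 CPM (Vldlr-/-) and 177 CPM (WT) in CD8 T cells (log2 fold change -1.84). Gzmk had 3 UMIs in the CD4 sums and 281 in the CD8 sums. Gm4208, a predicted gene, and Adgrg5, an adhesion receptor of cytotoxic cells, were at 0 in both CD4 sums and at least 16.2-fold and 8.50-fold lower by the floor of 3 counts. Of 6 Th1 genes 4 were lower, Tbx21 (-2.35), Cxcr3 (-1.75), Ifng (-3.41) and Il18rap (-3.11), and of 17 homing genes 9 were lower and only Gpr183 higher (1.53). The others named as lower were Gm43698, Gm44175, Cnr2, Wdr95 and Klra9, and without mixed barcodes Haao, Hip1, Lrrk1 and Plac8.

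**Figure D5:**
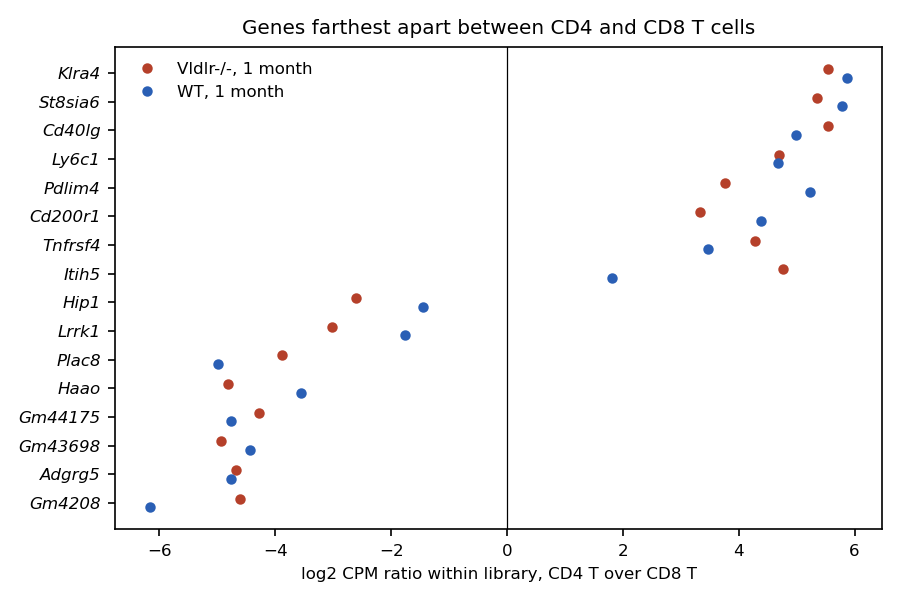
Log2 ratio of CPM, CD4 T over CD8 T, within each 1-month library for 16 genes named without mixed barcodes (x axis; the Vldlr-/- and the WT value on each row, each from 1 library). Cd40lg and St8sia6 lie to the right and Gm4208 and Plac8 to the left in both libraries.

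Natural killer cells differed from CD4 T cells in the markers of both lineages. Against NK cells 729 genes were higher (9.03%) and 739 lower (9.15%), and without mixed barcodes 703 (9.13%) and 768 (9.98%). Of 15 naive genes 11 were higher and 1 lower, and of 9 regulatory genes 7 were higher and none lower. Dapl1, a gene of naive T cells, had 346 CPM (Vldlr-/-) and 285 CPM (WT) in the CD4 sums and 0 UMIs in both NK sums, at least 67.8-fold higher by the floor of 3 counts over both NK sums (adjusted p = 9.03e-08). Themis, needed for T cell selection, was at least 24.5-fold, Trat1, a receptor-associated adaptor, at least 26.7-fold and Slfn1 at least 41.8-fold higher by the same floor. Ly6c1, Izumo1r, Ctla4, Gpc3 and Cd40lg were at 0 UMIs in both NK sums as well, and the UMIs of Gpc3 in CD4 T cells fell in at most 4 cells of a library. Klra3, a receptor of the Ly49 family, had 0 UMIs in the CD4 sums and 375 CPM (Vldlr-/-) and 373 CPM (WT) in the NK sums, at least 149-fold lower. All 7 tested genes of the cytotoxic list were lower, among them Tyrobp (log2 fold change -6.06) and Fcer1g (-5.73), signalling adaptors of NK receptors. Spi1, also at 0 in CD4 T cells, had its 31 NK UMIs in the WT library alone. The others named as lower were Klra9, Phactr3, Kcnip3, Klra6, Gm10522 and Klrc3, and Lrrk1 and H2-DMb1 without mixed barcodes. H2-DMb1 had 3 UMIs in the Vldlr-/- and 54 UMIs in the WT NK sum. All 6 MHC class II genes were lower than in NK cells, with a median log2 fold change of -5.13. Macrophage and dendritic cell genes were not among the lists screened for mixed barcodes, and their part in the NK sums was not tested.

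Against B cells 933 genes were higher (11.6%) and 874 lower (10.8%), and without mixed barcodes 991 (12.9%) and 953 (12.4%). All 9 tested B cell genes outside the gates and all 6 MHC class II genes were lower in CD4 T cells. Of 23 receptor signalling genes 18 were higher and 3 lower. Among the naive genes that did not pass were Ccr7, Klf2 and Foxo1, with log2 fold changes between 0.06 and 0.30. Nrp1 was the regulatory gene that passed in neither direction, with a log2 fold change of 1.44 (adjusted p = 0.0508).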

How the data were processed

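The authors deposited UMI counts per gene and barcode. Per the file headers these are integers, and the headers name Cell Ranger 6.0.2 at 1 month and 7.0.1 at 2 months. Cell Ranger 3.0, Seurat 4.0 and mm9 stand in the submitters' processing notes. No source used here says whether introns were counted. Chromosomes came from GENCODE M21 (GRCm38) by gene ID, promoters from RefSeq (GRCm38.p6).

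Barcodes were picked by the gates in the report, and counts were summed per library and class, then scaled to CPM, here and not by the authors. The members and gene lists were chosen with earlier results of these data known. Genotype ratios are log2 ratios of CPM, with 0.5 added to each count, where both sums together reached 30 UMIs, with exact Poisson and conditional binomial 95% intervals that cover counting error only. Shares carry exact Clopper-Pearson 95% intervals. Each genotype was 1 library, whose number of mice is not given, so no genotype test was run.

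Classes were compared with edgeR 4.0.16 (quasi-likelihood test, Benjamini-Hochberg adjustment over all genes tested) on 8 sums, CD4 T, CD8 T, NK and B of both 1-month libraries, with library as a block. DESeq2 1.42.0 was an alternative. CD8 T barcodes held Cd8a or Cd8b1 and no Cd4, NK barcodes at least 2 of Ncr1, Klrb1c, Klre1, Gzma and Prf1 with no CD3 gene, B barcodes at least 2 B cell genes of a short set with Cd79a, Cd79b and Ms4a1 in it, and no CD3 gene or Trac. Values of some single genes are not reported here. The calculation was tested on simulated data. Genes named for genotype were the 10 per direction, at least 2-fold apart, whose interval lay farthest from 0 and whose CPM reached 0.25 of that in the library's other barcodes, with and without mixed barcodes. For CD8 T and NK the 8 largest fold changes per direction past an adjusted p of 0.05, alike in both libraries, were named, and from each list up to 4 members by UMIs or role. Other genes of the lists were picked for description after their values were seen. The 2-month libraries entered no comparison. Python 3.11.15 and R 4.3.3 were used.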

Additional observations from a re-analysis of the deposited data

Results flagged for a closer look

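In 3 genes the CD4 T sums differed between the genotypes in one direction and the CD8 T sums of the same libraries in the other, each at least 2-fold with counting intervals clear of 0. The difference between the classes was not tested, since each genotype was 1 library.

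Apoe, the lipoprotein ligand of Vldlr and related receptors, had 62 UMIs in Vldlr-/- and 24 UMIs in WT CD4 T cells, a log2 ratio of 1.83, and 19 UMIs in Vldlr-/- and 343 UMIs in WT CD8 T cells, a log2 ratio of -3.42. In the Vldlr-/- CD4 T cells 37 of the 62 UMIs lay in 1 barcode, and without mixed barcodes 14 UMIs were left in Vldlr-/- and 23 UMIs in WT cells.

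Gzma, a granzyme, had a log2 ratio of 1.08 in CD4 T cells and of -1.09 in CD8 T cells, with 1123 UMIs in Vldlr-/- and 3934 UMIs in WT CD8 T cells. In CD4 T cells 172 of the 173 Vldlr-/- UMIs lay in 1 cell.

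Trf, which encodes transferrin, had a log2 ratio of 3.91 in CD4 T cells and of -1.26 in CD8 T cells, and 108 of the 113 Vldlr-/- UMIs in CD4 T cells lay in 1 mixed barcode.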

How the results depend on the processing

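No paired analysis was possible between the genotypes because each was 1 library and the labels give no replicate numbers. The class comparisons had the library as a block. Without the replicate block CD4 T gave 137 genes higher and 189 lower than CD8 T, 694 and 699 against NK, and 870 and 804 against B, each within 1.5 times. The direction of called genes was also read within a single library, a value with no test. Against CD8 T it was kept in 182 to 183 higher and 228 to 229 lower genes. Against NK it was kept in 724 to 727 and 727 to 739, and against B in 928 to 933 and all 874. The genes had been called from these same libraries, so the calls largely fixed this outcome and it is no separate check.

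DESeq2 gave 70 higher and 123 lower against CD8 T, 462 and 429 against NK, and 592 and 453 against B. It shared 188 of its 193 calls against CD8 T with edgeR, and these 188 were 45.6% of the 412 edgeR calls. Cells thinned to 1500 UMIs gave 70 and 81 against CD8 T, 273 and 216 against NK, and 308 and 316 against B, over 2198 genes tested. With CD4 T and CD8 T alone in the fit 329 genes were higher than in CD8 T, and with no filter on low counts 414 were lower. Ndnf, higher than in CD8 T cells with all barcodes, had a log2 fold change of -2.98 without mixed barcodes. The causes of these shifts were not tested, save that thinning leaves fewer genes to test.

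Of genes at least 2-fold higher in Vldlr-/- cells, 103 became 18 with cells thinned to 1500 UMIs, 574 at 10 UMIs over both sums, 15 at 100 UMIs and 292 with T cells of neither coreceptor added. Of those lower, 117 became 14 with thinned cells, 539 at 10 UMIs, 13 at 100 UMIs, 52 without barcodes with B cell or macrophage markers or in the top 5% of UMIs, and 52 without mixed barcodes. With T cells of neither coreceptor added, the log2 ratio was -1.65 for Gzma, 1.07 for Serping1 and 0.35 for Klf4. Without mixed barcodes it was 0.86 for Hba-a1. Genes with under 30 UMIs under a setting gave no value there.

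Among list medians, the regulatory list had 0.65 without barcodes with B cell or macrophage markers or the top 5%, 0.58 with T cells of neither coreceptor added and 0.60 without Foxp3-detected cells. The naive list had -0.19 thinned, -0.35 with TMM scaling, -0.17 with neither added, -0.17 without mixed barcodes and -0.14 without Foxp3-detected cells. The median of all genes was -0.03 with TMM and 0.05 by totals. The activation list had 0.12 without marker and top barcodes, 0.40 thinned, 0.41 with TMM, 0.40 at 10 UMIs, 0.078 with neither added, 0.25 without mixed barcodes, 0.40 by the mean of cell CPM and 0.20 without Foxp3-detected cells. The receptor signalling list had 0.086 without marker and top barcodes, 0.15 with TMM, -0.0055 with neither added and 0.14 by the mean of cell CPM. The MHC class I list had -0.36 with TMM, -0.19 at 100 UMIs and -0.21 by the mean of cell CPM. The interferon list had -0.27 with TMM, -0.10 with neither added and -0.048 without mixed barcodes. The immediate early list had -0.072 without marker and top barcodes, -0.21 thinned, -0.38 with TMM, -0.22 at 10 UMIs, -0.13 at 100 UMIs, -0.19 with neither added, -0.069 without mixed barcodes, -0.15 by the mean of cell CPM and -0.21 without Foxp3-detected cells. Filters of 500 genes and 15% mitochondrial UMIs, 3 of the 5 T cell genes, 2 counts added and totals without abundant RNA moved none of the shares, gene counts or list medians by more than counting error or 1.5 times.

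The CD4 T share was 11.2% of lymphocyte barcodes in the Vldlr-/- and 13.3% in the WT library. Without marker and top barcodes 39 members were left of 1819 kept barcodes in the Vldlr-/- library. In the WT library 42 were left of 1549 (2.71%). The Foxp3-detected share at 1000 UMIs was 4% of Vldlr-/- and 4.17% of WT cells. Mixed barcodes, cell weighting and Foxp3-detected cells were alternatives chosen after seeing the data. Depth limits genes under about 30 UMIs, where counting intervals span several fold.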
